A study of Mus musculus with 24 samples.

Results

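The T cell receptor complex and its coreceptors were followed in RNA-seq counts from 24 mouse hearts. The 10 genes were taken by name: Cd3d, Cd3e and Cd3g, which encode the delta, epsilon and gamma subunits of CD3, Cd247, which encodes the zeta chain, the coreceptor genes Cd4, Cd8a and Cd8b1, the kinase genes Lck and Zap70, and the adaptor gene Lat. All 10 were matched to an Ensembl identifier among the 41388 genes of the count table. The hearts came from young adult male Balb/c mice of wild type genotype, of the substrain BALB/cAnNCrl per the study's methods. In experimental autoimmune myocarditis (EAM), mice were immunized with a peptide of the alpha cardiac myosin heavy chain in supplemented complete Freund's adjuvant on day 0 and day 7. Control mice received the same adjuvant emulsified with PBS in place of peptide on both days, and every mouse of both groups was given pertussis toxin on day 0, so the control hearts are adjuvant-treated and not naive. Tissue was taken 10, 15 and 21 days after the first injection (D10, D15 and D21), and on each day a part of the heart of 4 EAM and 4 control mice was sequenced. Hearts were not a random draw, since inflamed ones were preferred for sequencing, and the D21 EAM hearts came from a larger set of mice.

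The T cell receptor is a pair of clonotypic chains that bind a peptide held by an MHC molecule and have no signalling tail of their own. The CD3 subunits and the zeta chain carry the tails, which are phosphorylated by Lck. ZAP-70 then docks on them and phosphorylates LAT, the membrane scaffold from which the calcium and Ras pathways start. CD4 and CD8 bind MHC class II and class I and bring Lck to the receptor, so that they divide mature T cells into helper and cytotoxic classes. Myosin-induced myocarditis is known as a disease that T cells with CD4 drive.

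Cd3g, Cd3d and Cd3e lie side by side on chromosome 9, and Cd3g and Cd3d are transcribed away from each other from starts that are 1354 bases apart. In the GENCODE annotation of GRCm38, Cd3g (ENSMUSG00000002033) spans chr9:44969572-44980431 on the minus strand, Cd3d (ENSMUSG00000032094) chr9:44981786-44987339 on the plus strand and Cd3e (ENSMUSG00000032093) chr9:44998740-45009627 on the minus strand. Because these 3 neighbours rose together in the hearts described below, the bases just before their transcription starts are shown. They come from the RefSeq promoter table of GRCm38.p6, 5′ to 3′ on the strand of each gene, at chr9:44980432-44980681 for Cd3g, chr9:44981536-44981785 for Cd3d and chr9:45009628-45009861 for Cd3e. Capitals mark every match to one of 5 motifs searched on both strands, the E box CAGGTG, the ETS core AGGAAG, the GATA motif AGATAA, the RUNX core TGTGGT and the TATA box TATAAA.
Cd3g: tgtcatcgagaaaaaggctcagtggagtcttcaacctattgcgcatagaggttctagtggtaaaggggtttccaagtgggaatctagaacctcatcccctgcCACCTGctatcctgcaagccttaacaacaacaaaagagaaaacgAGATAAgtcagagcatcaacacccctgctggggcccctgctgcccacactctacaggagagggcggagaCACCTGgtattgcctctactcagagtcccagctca
Cd3d: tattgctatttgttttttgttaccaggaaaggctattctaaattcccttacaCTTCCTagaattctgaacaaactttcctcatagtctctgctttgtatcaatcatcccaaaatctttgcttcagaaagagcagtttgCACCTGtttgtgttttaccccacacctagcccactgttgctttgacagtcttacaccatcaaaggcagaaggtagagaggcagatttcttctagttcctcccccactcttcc
Cd3e: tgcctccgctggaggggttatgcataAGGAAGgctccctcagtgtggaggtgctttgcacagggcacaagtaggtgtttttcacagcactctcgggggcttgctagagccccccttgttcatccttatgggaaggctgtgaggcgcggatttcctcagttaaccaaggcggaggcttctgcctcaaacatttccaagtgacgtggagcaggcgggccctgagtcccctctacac
The Cd3g window held 2 E boxes and 1 GATA motif, the Cd3d window 1 E box and 1 ETS core, and the Cd3e window 1 ETS core. No window of the 3 held a TATA box or a RUNX core. Of 32851 promoter windows of 250 bases in the table, the length of the Cd3g and Cd3d windows, 17.2% held an E box, 29.5% an ETS core, 9.99% a GATA motif, 14.0% a RUNX core and 12.4% a TATA box. Shortened to 234 bases, the length of the Cd3e window, 16.2% held an E box, 27.6% an ETS core, 9.61% a GATA motif, 13.3% a RUNX core and 11.9% a TATA box, and no matches overlapped in the windows shown.

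The other members lie elsewhere. Cd8b1 (ENSMUSG00000053044, chr6:71322788-71337494) and Cd8a (ENSMUSG00000053977, chr6:71373427-71379173) are neighbours on the plus strand of chromosome 6, and Cd4 (ENSMUSG00000023274) is far from them on the same chromosome at chr6:124864692-124888221, minus strand. Cd247 (ENSMUSG00000005763) is at chr1:165788681-165877277 and Zap70 (ENSMUSG00000026117) at chr1:36761798-36782818, both on the plus strand. Lck (ENSMUSG00000000409, chr4:129548344-129573641) and Lat (ENSMUSG00000030742, chr7:126363824-126369570) are on the minus strand. Exons of Cd247 overlap those of Pou2f1, which is transcribed in the opposite direction. The library kit keeps the strand, but no source used here tells whether the counting used it. The study took forward only reads assigned to a single feature and set aside reads that spanned several. If strand was not used, reads on exons shared with Pou2f1 could thus be missing from the Cd247 count. On the same strand, exons of Gm16565 overlap those of Cd247, exons of Mir8119 those of Lck and exons of Mir7058 those of Lat. Strand cannot tell these reads apart, and reads on the shared exons could likewise be missing from the counts.

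The libraries held 15814863 to 24980864 counts on genes, with a median of 19469782. At these depths 3 reads make 0.105 to 0.201 CPM (counts scaled to the same library size after TMM scaling, as for all CPM values here), and many control values of the members lie near that level. Among D10 EAM hearts, replicate 1 stood apart, with the highest value of its group in 10 of 10 members, and D21 EAM replicate 3 had the lowest value of its group in 10 of 10. Markers of other cells moved with D10 EAM replicate 1. Ptprc, a gene of all leucocytes, was at 194 CPM there and at 27.7 to 56.7 CPM in the other 3, the sum of 6 NK cell genes at 21.0 CPM beside 1.64 to 4.46 CPM, and the sum of 6 lymph node genes at 34.4 CPM beside 5.44 to 9.25 CPM. Only 2 of these 6 lymph node genes had enough reads for the D10 test, with log2 fold changes of -0.20 and 2.94, so the sum does not stand for the list as a whole. The part of these other cells in the members' levels was not tested. The 4 D21 EAM libraries carry another library code than the other 20. At D21 the code and EAM therefore cannot be told apart. In RNA from whole tissue, more T cells and more RNA per T cell also cannot be told apart.

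At D15, every gene of the complex was induced in EAM hearts, from the CD3 subunits through both coreceptors to Lck, Zap70 and Lat. A gene was called induced at a false discovery rate (FDR) under 0.01 in edgeR's quasi-likelihood test with at least a 2-fold higher level. By this rule 10 of 10 members were induced at D15, against 18.1% of the 15693 genes tested. Their median log2 fold change was 4.27, from 1.83 for Cd247 to 4.85 for Cd4, and the median of all genes tested was 0.016. In 10 of 10 members all 4 EAM hearts lay above all 4 control hearts, which held for 34.6% of the genes tested.

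At D21, the genes remained higher in EAM hearts than in controls, with a wider spread between hearts. Of 9 members with enough reads for the test, 8 were induced, against 4.13% of 15266 genes, and the median log2 fold change was 3.77 beside -0.0064 over all genes. Cd247 was not called and Cd8b1 had too few reads. All 4 EAM hearts lay above all 4 controls in 9 of 10 members, Cd8b1 included and Cd247 not, and in 17.8% of the genes tested. The calls at D21 sat close to the FDR limit, and when a library was left out the number of calls moved over all genes as well as in the members. Leaving out EAM replicate 3 gave 9 calls (10.3% of all genes) and leaving out EAM replicate 4 gave 7 (2.57%), but leaving out EAM replicate 2 gave 2 (Cd4 and Lat, 0.275% of genes). Leaving out EAM replicate 1 gave 0 (0.0721% of genes), and so did leaving out control replicate 4 (0.0262%) or any 1 of the control replicates 1, 2 and 3 (0% of genes). The fold changes held: over these 8 fits, the log2 fold change of the 8 called genes was never under 3.01, and their adjusted p never over 0.0321. With the replicate number as a block, which paired EAM and control hearts at D21, 7 were called (3.94% of genes), and with limma-voom 1 was called (Lat, 0.524% of genes). DESeq2 and edgeR's likelihood ratio test called 8 members each, with 1364 and 1356 calls over all genes.

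At D10, no member was called. The test could be run on 6, since Cd3d, Cd8a, Cd8b1 and Zap70 had 10 reads in fewer than 4 of 8 hearts, and 0 of these 6 were called, as were 0% of the 15029 genes tested. The 6 log2 fold changes all lay above 0, from 0.27 for Cd247 to 2.25 for Lck, with a median of 1.53 beside -0.0079 over all genes, and 3 of the 6 (Cd3e, Lck and Lat) had an unadjusted p under 0.05 and a higher level in EAM, as did 9.71% of all genes tested. Without EAM replicate 1 that of Cd247 was -0.10 and the other 5 were 0.49 to 0.89. Cd3d was the 1 member with all 4 EAM hearts above all 4 controls, which 4.41% of the genes tested showed. When all 12 control hearts of the 3 days were set against the D10 EAM hearts, 7 of 8 members tested were called, against 4.07% of 15545 genes, which compares hearts of different days. DESeq2, limma-voom and edgeR's likelihood ratio test, run on the D10 hearts alone, also called 0 members, with 48, 0 and 45 calls over all genes. The study itself reported genes induced at D10 at the same limits of FDR and fold change, and does not state which edgeR test it used. The absence of calls at D10 thus holds for the test used here.

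**Figure D1:**
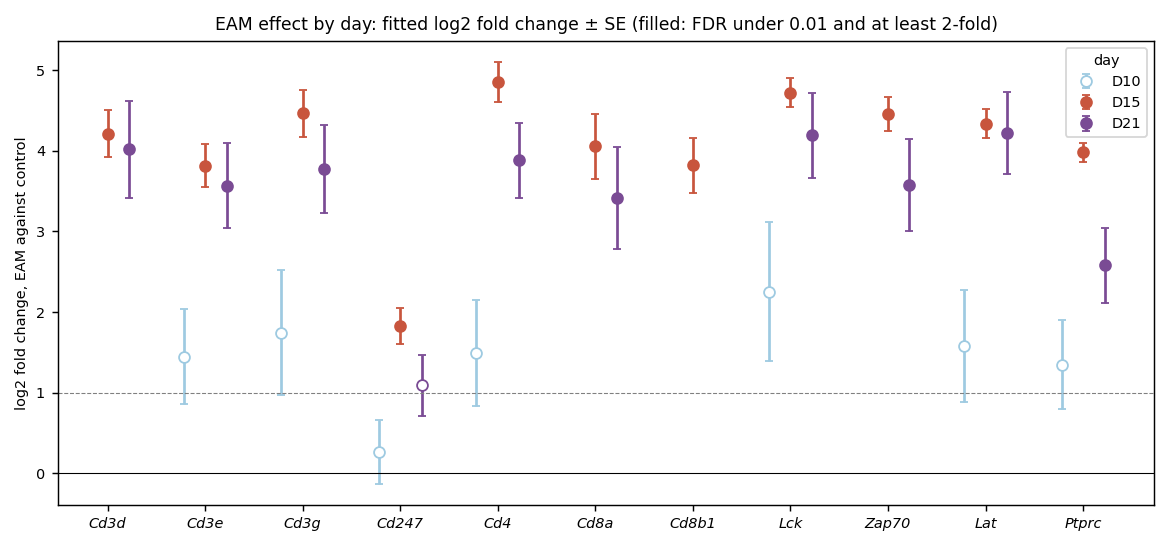
Fitted log2 fold change of EAM against control hearts (vertical axis) with its SE for the 10 genes and Ptprc at D10, D15 and D21, 4 hearts a group, where a filled point marks a called gene and a missing point a gene with too few reads. The D15 points lie between 1.83 for Cd247 and 4.85 for Cd4, the D21 points between 1.09 and 4.22 with longer error bars, and the D10 points are all open.

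Cd3d, the delta subunit of CD3, was at 5.58, 5.89, 4.26 and 5.52 CPM in the 4 D15 EAM hearts and at 0.156 to 0.518 CPM in the D15 controls. The 4 EAM hearts lay close together and far above the controls, with a log2 fold change of 4.21 ± 0.29 (SE) and an edgeR adjusted p of 1.93e-06. At D21 the values were 7.99, 3.98, 1.54 and 6.85 CPM in EAM and 0.203 to 0.615 CPM in control hearts. Replicate 3 was thus the low heart at D21, yet above every control, and the log2 fold change was 4.02 ± 0.60 (edgeR adjusted p = 0.00565). At D10 Cd3d was at 2.83, 0.453, 1.28 and 0.581 CPM in EAM and 0.228 to 0.359 CPM in control hearts, which did not overlap.

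Cd3e, the epsilon subunit, which pairs with either of the other CD3 subunits, was at 8.08, 7.29, 5.15 and 7.18 CPM in D15 EAM hearts and at 0.311 to 0.827 CPM in their controls. Its log2 fold change was 3.82 ± 0.27 (SE, edgeR adjusted p = 2.14e-06), with no overlap. At D21 EAM hearts were at 6.31, 3.05, 2.74 and 8.45 CPM, in 2 high and 2 low hearts, and controls at 0.256 to 0.865 CPM, a log2 fold change of 3.57 ± 0.53 (edgeR adjusted p = 0.00558). At D10 EAM hearts held 3.85, 0.567, 1.73 and 0.898 CPM against 0.337 to 0.800 CPM in controls, so replicates 1, 3 and 4 lay above the controls and replicate 2 among them.

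Cd3g, the gamma subunit, reached 10.2, 8.55, 6.67 and 9.46 CPM in D15 EAM hearts, against 0.177 to 0.677 CPM in controls. The log2 fold change was 4.47 ± 0.29 (SE, edgeR adjusted p = 1.35e-06) and the groups were far apart. At D21 it was at 12.6, 7.30, 2.47 and 11.2 CPM against 0.410 to 1.01 CPM, with a log2 fold change of 3.77 ± 0.55 (edgeR adjusted p = 0.00535). At D10 the values of 4.91, 0.793, 1.17 and 0.370 CPM spread around the controls at 0.331 to 0.914 CPM, with replicates 1 and 3 above them.

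Cd247, the zeta chain, which NK cells also use with their own receptors, had the smallest change of the 10 genes. It was at 0.766 to 1.81 CPM in D15 controls, and in D15 EAM hearts it reached 5.29, 4.14, 4.85 and 4.63 CPM. The groups did not overlap at D15, and the log2 fold change was 1.83 ± 0.23 (SE, edgeR adjusted p = 7.23e-05). At D21 EAM hearts held 5.32, 3.76, 1.40 and 4.97 CPM and controls 1.73, 1.63, 2.32 and 1.74 CPM. Replicate 3 lay below every control there, and the log2 fold change of 1.09 ± 0.38 did not pass (edgeR adjusted p = 0.0562). Cd247 reads per read of the 3 CD3 genes had a log2 ratio of 0.13 ± 0.40 (SD, n = 4) in D15 control hearts and of -2.13 ± 0.29 (SD, n = 4) in D15 EAM hearts, which is a description without a test.

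**Figure D2:**
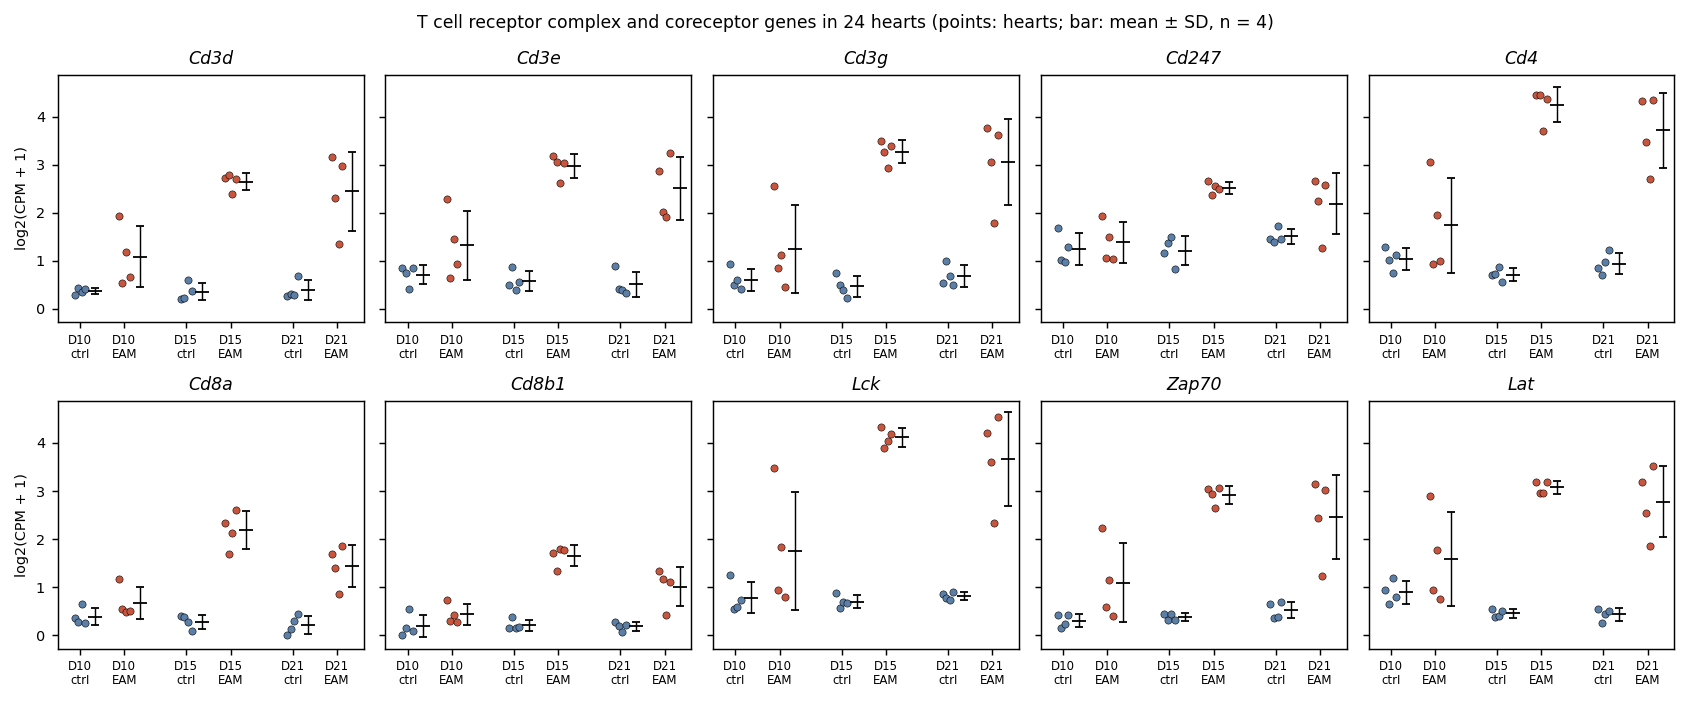
Level of each of the 10 genes in each heart as log2(CPM + 1) (vertical axis), by day and group (horizontal axis), with a point per heart in order of replicate number and a bar for the mean ± SD of 4 hearts. At D15 every EAM heart lies above every control in all 10 panels, with Cd4 lower in replicate 3, at 11.99 CPM, than in the others. D10 EAM replicate 1 is the high point of its group in every panel and D21 EAM replicate 3 the low point of its group, for Cd247 below the controls of its day.

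Cd4, the helper coreceptor, had the largest fitted change of the 10 genes at D15, but its lead over Lck was within the SE. Against all 12 control hearts the order turned, with 4.56 for Lck and 4.42 for Cd4 on the log2 scale. In D15 EAM hearts Cd4 was at 20.9, 20.8, 11.99 and 19.8 CPM, and in D15 controls at 0.471 to 0.829 CPM. Replicates 1, 2 and 4 were nearly alike and replicate 3 lower, but all were far above the controls, with a log2 fold change of 4.85 ± 0.25 (SE, edgeR adjusted p = 3.1e-07). At D21 Cd4 was at 19.0, 10.1, 5.55 and 19.4 CPM against 0.624 to 1.33 CPM in controls, with no overlap and a log2 fold change of 3.88 ± 0.47 (edgeR adjusted p = 0.00459). At D10 it was at 7.29, 0.907, 2.90 and 1.003 CPM in EAM hearts and 0.674 to 1.43 CPM in controls, where EAM replicates 1 and 3 lay above and replicates 2 and 4 among the controls.

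Cd8a encodes the alpha chain of CD8, which some dendritic and NK-type cells also carry as a homodimer. It was at 4.08, 2.21, 3.33 and 5.06 CPM in D15 EAM hearts and at 0.0589 to 0.313 CPM in controls. Replicate 2, which was among the highest for Cd4, was the lowest for Cd8a, and the log2 fold change was 4.06 ± 0.40 (SE, edgeR adjusted p = 1.84e-05). At D21 the EAM hearts were at 2.22, 1.64, 0.802 and 2.59 CPM, and the controls between no read and 0.359 CPM, a log2 fold change of 3.41 ± 0.64 (edgeR adjusted p = 0.00844). With the replicate block this D21 value was 3.39 and no longer passed (edgeR adjusted p = 0.0155). At D10, replicate 1 at 1.24 CPM was above every control, and replicates 2, 3 and 4 at 0.453, 0.390 and 0.422 CPM lay below the highest control at 0.562 CPM.

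Cd8b1 encodes the beta chain, which joins Cd8a in the CD8 of conventional cytotoxic T cells. It was at 2.29, 1.51, 2.49 and 2.43 CPM in D15 EAM hearts and at 0.104 to 0.295 CPM in controls, with a log2 fold change of 3.82 ± 0.34 (SE, edgeR adjusted p = 9.72e-06). At D21 the EAM hearts held 1.53, 1.25, 0.334 and 1.16 CPM and the controls 0.0438 to 0.203 CPM, which did not overlap but were too low for the test. The lowest of these EAM hearts, replicate 3, rested on 5 reads. At D10 Cd8b1 was at 0.663, 0.227, 0.334 and 0.211 CPM in EAM hearts and between no read and 0.449 CPM in controls. Replicates 2, 3 and 4 thus lay below the highest control.

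Lck, the Src-family kinase held by both coreceptors, was at 19.1, 13.8, 15.5 and 17.2 CPM in D15 EAM hearts and at 0.473 to 0.834 CPM in controls. Its log2 fold change of 4.72 ± 0.18 (SE) had the smallest adjusted p of the 10 genes (edgeR adjusted p = 5.3e-08). At D21 it was at 17.4, 11.2, 4.01 and 22.2 CPM against 0.657 to 0.871 CPM in controls, with a log2 fold change of 4.19 ± 0.53 (edgeR adjusted p = 0.00473). At D10 replicate 1 alone was at 10.1 CPM and replicate 3 at 2.56 CPM, while replicates 2 and 4, at 0.907 and 0.739 CPM, lay among the controls at 0.461 to 1.37 CPM.

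Zap70, the Syk-family kinase that docks on the phosphorylated tails, was at 7.20, 6.62, 5.23 and 7.37 CPM in D15 EAM hearts and at 0.236 to 0.365 CPM in controls. The log2 fold change was 4.46 ± 0.21 (SE, edgeR adjusted p = 1.93e-07). At D21 it was at 7.79, 4.41, 1.34 and 7.12 CPM against 0.288 to 0.615 CPM, with a log2 fold change of 3.58 ± 0.57 (edgeR adjusted p = 0.00642). The D10 EAM hearts held 3.71, 0.510, 1.23 and 0.317 CPM, replicate 4 being the 1 heart that fell among the controls at 0.102 to 0.343 CPM.

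Lat, the adaptor, was at 8.12, 6.80, 6.75 and 8.14 CPM in D15 EAM hearts and at 0.295 to 0.469 CPM in controls, a log2 fold change of 4.34 ± 0.18 (SE, edgeR adjusted p = 9.19e-08). At D21 it was at 8.14, 4.80, 2.61 and 10.4 CPM against 0.192 to 0.458 CPM, a log2 fold change of 4.22 ± 0.51 (edgeR adjusted p = 0.00461). In D10 hearts it was at 6.45, 0.907, 2.395 and 0.686 CPM in EAM and 0.914, 0.564, 1.29 and 0.727 CPM in controls. The D10 controls were thus all higher than any D15 or D21 control. Platelets and mast cells also carry LAT, and the summed level of 6 platelet genes moved the same way, at 54.7 to 144 CPM in D10 controls and 9.85 to 21.1 CPM in D15 and D21 controls. The summed level of 6 mast cell genes did not, at 15.1 to 18.5 CPM in D10, 15.5 to 21.8 CPM in D15 and 19.7 to 25.5 CPM in D21 controls. The part of platelets in the Lat level was not tested. The control difference itself, -1.22 ± 0.66 for D15 minus D10 on the log2 scale, did not pass (edgeR adjusted p = 0.834).

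Between control hearts of different days, 0 of 10 members were called in edgeR's quasi-likelihood test. For D15 against D10, 0.00613% of 16318 genes were called higher and 0.0858% lower, for D21 against D15 0% in each direction, and for D21 against D10 0.123% higher and 0.0919% lower. No member had an unadjusted p under 0.05 in any of these contrasts, the smallest being 0.0579 for Lat at D21 against D10.

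Levels of different genes were compared per length, as CPM per kb of exon in the GENCODE annotation. In D15 EAM hearts Lck was highest at 5.61 ± 0.77 (SD, n = 4) and Cd4 next at 4.56 ± 1.06, within their spread. Cd3d at 2.93 ± 0.40, Lat at 2.69 ± 0.28, Cd3g at 2.67 ± 0.47 and Zap70 at 2.21 ± 0.32 CPM per kb formed a middle group whose neighbours lay within their spread. Cd3e followed at 1.70 ± 0.31, Cd8b1 at 1.47 ± 0.31, Cd8a at 1.01 ± 0.33 and Cd247 at 0.887 ± 0.090 CPM per kb, and of these steps those from Zap70 to Cd3e and from Cd8b1 to Cd8a were larger than 1 SD, and those from Cd3e to Cd8b1 and from Cd8a to Cd247 were not. The order in D21 EAM hearts was the same in the first 3 places, from Lck at 4.68 ± 2.70 through Cd4 at 3.35 ± 1.69 to Cd3d at 2.80 ± 1.60 CPM per kb, with Cd8a last at 0.498 ± 0.215. At D21 each step between neighbours was smaller than the larger of their SDs. In D15 control hearts, Cd247 led at 0.254 ± 0.086 and Cd8a was last at 0.0601 ± 0.0319 CPM per kb. The authors counted on an older annotation, whose exon lengths were not used here, so the order between genes holds for these lengths only.

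**Figure D3:**
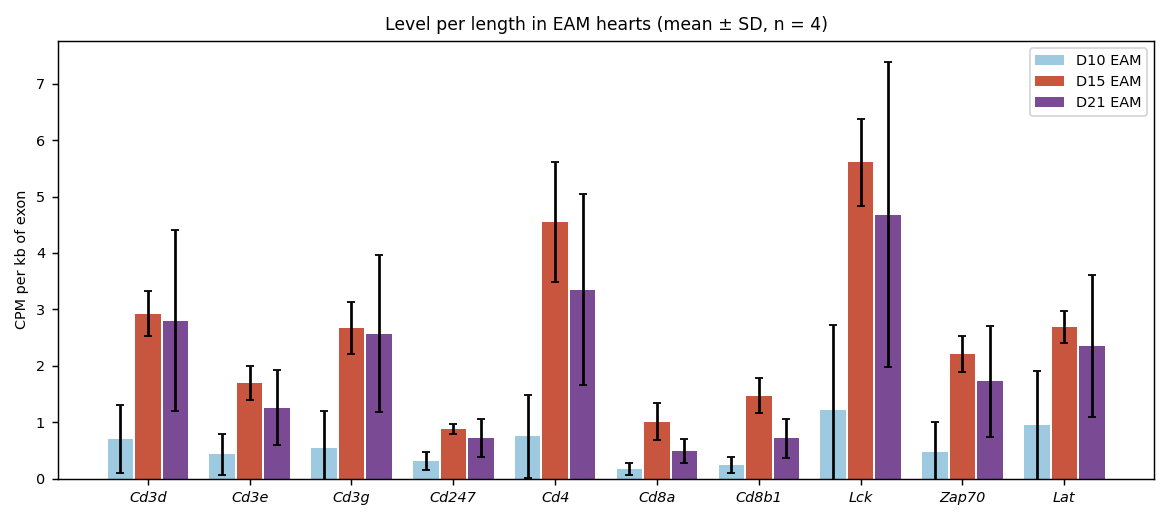
Level per kb of exon (vertical axis, CPM per kb, starting at 0) of the 10 genes in D10, D15 and D21 EAM hearts, as mean bars with SD over 4 hearts. Lck and Cd4 are the tallest bars at D15, at 5.61 and 4.56, Cd8a and Cd247 the shortest, and the SD bars are long at D10 and D21.

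The EAM effect was also compared between days in a fit of all 24 hearts. From D10 to D15 the effect increased for Cd4, by 3.31 ± 0.78 on the log2 scale (SE, edgeR adjusted p = 0.00321), and for Cd8a, by 3.004 ± 0.82 (edgeR adjusted p = 0.00706). These were 2 of 10 members, against 5.38% of 16318 genes with a higher effect. The other 8 also had values above 0, from 1.51 for Cd247 to 2.70 for Lat, with edgeR adjusted p from 0.0111 to 0.159, and the median over the 10 was 2.49 beside -0.032 over all genes. The number called turned on D10 EAM replicate 1: without it 9 were called, all but Cd8b1 (edgeR adjusted p = 0.0103), against 12.2% of genes. Leaving out any 1 of the other libraries of D10 and D15 gave 1 or 2 calls, always with Cd4, and 486 to 1021 calls over all genes beside 878 with all libraries. Leaving out D10 control replicate 1 or 3, D10 EAM replicate 2, 3 or 4, D15 control replicate 2, 3 or 4, or D15 EAM replicate 1 or 4 gave 1. With the replicate block 5 were called (Cd3e, Cd3g, Cd4, Lat and Lck, against 7.89% of genes), and Cd8a was not (edgeR adjusted p = 0.0141).

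From D15 to D21 the effect of no member was called as lower (0 of 10, against 0.919% of genes). All 10 values lay below 0, where 50.1% of all genes did, from -0.96 ± 0.76 for Cd4 to -0.11 ± 0.88 for Lat, with a median of -0.66 beside -0.00080 over all genes. The smallest unadjusted p was 0.162, for Cd247, and DESeq2 and limma-voom also called 0, with 252 and 150 calls over all genes. In the EAM hearts alone, D21 minus D15 gave -1.002 ± 0.42 for Cd8a and -0.999 ± 0.43 for Cd8b1 (edgeR adjusted p = 0.0611 and 0.0662) and -0.44 ± 0.44 for Cd4 (edgeR adjusted p = 0.431), so none of the coreceptors passed there either, where 1.83% of genes were called lower. In this contrast too all 10 members lay below 0, as did 49.2% of genes. From D10 to D21 the effect was also called in 0 of 10 members, against 0.0735% of genes with a higher effect, with edgeR adjusted p from 0.0904 for Lat to 0.664 for Zap70. Beside these 0 counts, unadjusted p under 0.05 was found in D10 to D21 for Cd3d, Cd3e, Cd3g, Cd4, Cd8a and Lat, 6 of 10, where 8.52% of genes had such a p and a higher effect.

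To compare Cd4 with Cd8 over time, the 2 genes were set against each other within each heart, as the log2 ratio of Cd4 reads to Cd8a reads with 0.5 added to each. In EAM hearts the ratio took the values 2.54, 0.96, 2.81 and 1.20 in D10 hearts, 2.35, 3.23, 1.84 and 1.96 in D15 hearts and, in D21 hearts, 3.09, 2.60, 2.74 and 2.89. The D21 hearts were close together above 2.5, while hearts at D10 and D15 spread on both sides of that value. The means were 1.88 ± 0.93, 2.34 ± 0.63 and 2.83 ± 0.21 (SD, n = 4), and the ranges overlapped between every pair of days.

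The Cd4 to Cd8a ratio did not pass a test in any comparison. It was 0.47 ± 0.56 (SE) higher at D15 than at D10 in EAM hearts (two-sided exact permutation p = 0.429, adjusted p = 0.748 over 18 ratio tests), 0.48 ± 0.33 higher at D21 than at D15 (exact p = 0.2, adjusted 0.514) and 0.95 ± 0.48 higher at D21 than at D10 (exact p = 0.114, adjusted 0.514). Against the control hearts of its day, the EAM ratio differed by 0.11 ± 0.69 at D10, 0.75 ± 0.48 at D15 and -0.0031 ± 0.76 at D21 (exact p = 0.886, 0.229 and 1.0). The D21 value turned on control replicate 1, which had 0 Cd8a reads: it was 0.73 without that heart, 0.64 with 2 reads added in place of 0.5, and 0.98 with Cd8b1 in place of Cd8a. The errors are wide, in controls because Cd8a had 0 to 10 reads per heart, and a missing call does not show that the ratio stayed the same. Over all 4 hearts of a group Cd4 had 252 and Cd8a 51 reads in D10 EAM, 1892 and 371 in D15 EAM and 1005 and 134 in D21 EAM hearts.

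The balance between the 2 chains of CD8 did not pass a test between days. The log2 ratio of Cd8a to Cd8b1 reads in EAM hearts was 0.73 ± 0.35 (SD, n = 4) at D10, and 0.71 ± 0.28 and 0.81 ± 0.42 on the later days, and the differences between days were -0.020 ± 0.23, 0.098 ± 0.25 and 0.079 ± 0.27 (SE), with exact permutation p from 0.686 to 0.971. The Cd4 to CD3 ratio in EAM hearts, given without a test, was lowest at D10, at -0.76 ± 0.20, and -0.21 ± 0.15 at D15 and -0.43 ± 0.10 at D21 on the log2 scale (SD, n = 4). Its D10 range overlapped neither that of D15 nor that of D21, while the D15 and D21 ranges overlapped. Against control hearts of the same day the EAM range lay apart at D15 and overlapped at D10 and D21. In control hearts it was -0.48 ± 0.18, -0.87 ± 0.29 and -0.59 ± 0.62 on the 3 days. The Cd8a to CD3 ratio, likewise without a test, was -2.63 ± 0.74 at D10, -2.56 ± 0.52 at D15 and lowest at D21, at -3.26 ± 0.25, in EAM hearts, and -2.24 ± 0.85, -2.46 ± 0.69 and -3.43 ± 1.87 in control hearts (SD, n = 4).

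**Figure D4:**
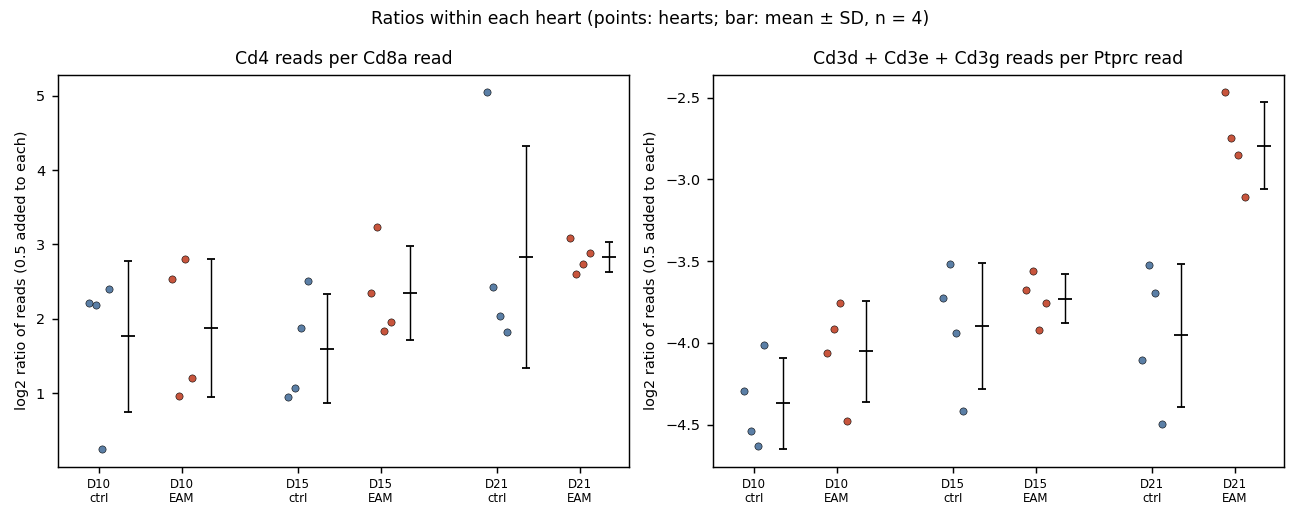
Log2 ratio of reads within each heart (vertical axes) by day and group (horizontal axes), for Cd4 against Cd8a on the left and for the 3 CD3 genes against Ptprc on the right, with a point per heart and the mean ± SD of 4 hearts. On the left the groups overlap and the D21 EAM hearts lie between 2.60 and 3.09, and on the right the 4 D21 EAM hearts, from -3.11 to -2.47, lie above all other hearts.

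Ptprc, which encodes CD45 and marks all leucocytes, was used to ask whether CD3 genes moved with leucocyte transcripts as a whole. It was induced at D15, from 17.98 ± 1.9 to 276 ± 31 CPM (SD, n = 4, log2 fold change 3.98 ± 0.12, edgeR adjusted p = 1.43e-08), and at D21, from 22.4 ± 6.8 to 131 ± 77 CPM (2.58 ± 0.46, edgeR adjusted p = 0.00774). The D21 EAM hearts held 149, 96.3, 48.9 and 229 CPM of Ptprc, in the same order of hearts as Cd4 except that replicates 1 and 4 were further apart.

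Reads of Cd3d, Cd3e and Cd3g per read of Ptprc were highest in D21 EAM hearts. The log2 ratio was -2.47, -2.75, -2.85 and -3.11 there, -3.68, -3.56, -3.92 and -3.76 in D15 EAM and -4.06, -3.91, -3.75 and -4.48 in D10 EAM hearts. All 4 D21 EAM hearts lay above every other heart of the study, including replicate 3, in which CD3 genes were low in CPM. The difference was 0.94 ± 0.15 (SE) from D15 EAM, 1.26 ± 0.20 from D10 EAM and 1.16 ± 0.25 from D21 control hearts. Each reached an exact permutation p of 0.0286, the smallest that 4 against 4 hearts can give, and an adjusted p of 0.171 over the 18 ratio tests. These 3 were the only tests at that smallest p, and with so few the adjusted p cannot fall under the threshold of 0.05. Complete separation of the hearts thus could not pass, and the missing calls do not tell whether the ratio differed. The comparisons share the D21 EAM hearts and set their library code against the other code, and the part of the library code in the ratio cannot be told apart from that of the day. At D15 the EAM ratio differed from its controls by 0.17 ± 0.21 (exact permutation p = 0.514).

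Beyond the complex, other genes of the pathway were counted by lists. Calls used the same limits, so the shares over all genes, 18.1% induced at D15 and 4.13% at D21, are the background of every count. All 3 constant genes of the receptor chains were induced at D15 and at D21. At D15 the log2 fold change was 4.82 ± 0.26 for Trbc2, 4.36 ± 0.32 for Trbc1 and 3.62 ± 0.25 (SE) for Trac, and at D21 it was 4.06, 4.199 and 3.19.

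Among the other kinases and adaptors near the receptor, 10 of 17 were induced at D15 and 7 of 15 tested at D21. The largest D15 changes were in Themis, a T cell adaptor, at 4.78 ± 0.30, and Sh2d2a, which encodes the adaptor TSAd, at 4.43 ± 0.27 (SE). Plcg1, the phospholipase that LAT binds, was the lowest at -0.64 ± 0.05 and was not called for lack of a 2-fold change. The median was 3.60 at D15 and 2.35 at D21.

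Of 15 second messenger and transcription factor genes further downstream, 3 were induced and 1 repressed at D15, shares near those of all genes tested (18.1% induced and 12.9% repressed). At D21 2 of the 15 were induced, and the medians were 0.60 at D15 and 0.091 at D21. Rasgrp1, the Ras activator downstream of LAT, rose from 1.32 ± 0.29 to 42.5 ± 7.4 CPM at D15 (SD, n = 4, log2 fold change 5.05 ± 0.19). Itpkb, a kinase of inositol trisphosphate, fell from 199 ± 21 to 96.2 ± 7.9 CPM (-1.01 ± 0.09, edgeR adjusted p = 1.27e-05).

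Of 18 genes that damp the receptor signal, 16 were induced at D15, and 6 of 15 tested at D21, with medians of 3.05 and 1.58. Cd5, a receptor that restrains the signal, rose from 0.150 ± 0.122 to 7.31 ± 0.60 CPM at D15 (SD, n = 4), with log2 fold changes of 5.58 ± 0.31 at D15 and 5.51 ± 0.71 at D21, and Ubash3a, a phosphatase of the STS family, had 4.96 ± 0.24 at D15. Dgka, which removes diacylglycerol, was the lowest at 0.28 ± 0.06 and was not called. Of 12 other T cell surface receptors tested, 11 were induced at D15, and 7 of 10 at D21, with medians of 4.29 and 3.31. Cd2, an adhesion receptor, had 5.06 ± 0.22 and Il7r, the interleukin-7 receptor, 5.002 ± 0.37 at D15. Cd28, the costimulatory receptor, was at 11.99 ± 0.66 CPM in D15 control and 8.96 ± 1.59 CPM in D15 EAM hearts (SD, n = 4) and was not called (-0.38 ± 0.13, edgeR adjusted p = 0.0208).

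**Figure D5:**
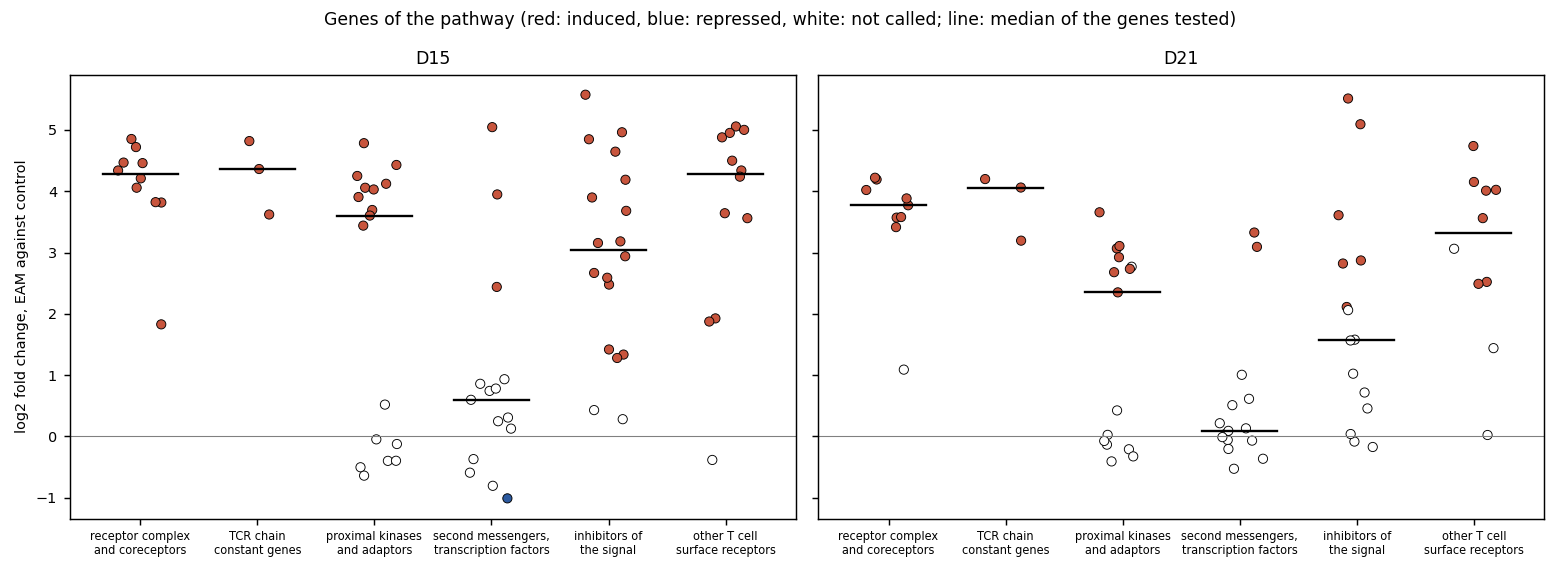
Fitted log2 fold change of EAM against control hearts (vertical axis) for each gene tested of 6 lists (horizontal axis) at D15 and D21, with a line at the median. The complex and the constant genes have medians of 4.27 and 4.36 at D15 and of 3.77 and 4.06 at D21, with Cd247 the low point of the complex at 1.83 and 1.09, and the second messenger list has its median at 0.60 at D15 and 0.091 at D21.

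Genes whose levels over the 24 hearts were most like those of 3 members were found among 14282 genes, by the root mean square difference of log2(CPM + 1) after centring each gene on its mean. For Cd3e the nearest were Trbc2 at 0.22, Arrb2 at 0.22 and Dok1 at 0.22. For Cd4 they were Glipr1 at 0.23, Lck at 0.24 and Cd300c2 at 0.26, and for Cd8a Rab43 at 0.20, Lax1 at 0.20 and Cysltr1 at 0.21. Trbc2 and Lck belong to the receptor system, and Lax1 and Dok1 to its inhibitors. The mean of each gene was taken out, but the added 1 CPM damps the changes of genes near or below 1 CPM, so the level of a gene still bears on which genes are near it. Rab43, the nearest to Cd8a, had a mean of 60.8 CPM, while Cd8a stayed at 5.06 CPM or below in the EAM hearts of D15. The 24 hearts fall into 6 groups that share a day and a treatment.

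Markers of other cell types moved in the same hearts, and some of these cells share members of the complex. The background of the counts is again 18.1% induced at D15 and 4.13% at D21. NK cells express Cd247, Lck, Zap70 and Lat, and 6 of 6 NK genes were induced at D15 and 3 of 4 tested at D21, with a summed level of 0.829 to 1.72 CPM in D15 control, 15.98 to 37.1 CPM in D15 EAM, 1.64 to 21.0 CPM in D10 EAM and 5.82 to 37.5 CPM in D21 EAM hearts. Klrk1, Eomes and Ncr1 had D15 log2 fold changes of 5.15, 4.74 and 3.80, and none of the 6 was without reads in any group. The part of NK cells in the levels of the shared genes was not tested. The log2 fold changes at D15 of Cd3d, Cd3e, Cd3g, Cd8b1 and the receptor constant genes were 3.62 to 4.82. Of the 4 shared genes, Lck, Zap70 and Lat lay within that range, up to 4.72 for Lck, and Cd247 lay below it at 1.83.

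Macrophages and dendritic cells can carry Cd4 or Cd8a. Of 6 macrophage genes 6 were induced at D15 and 4 at D21, with a summed level of 541 to 621 CPM in D15 control and 2793 to 4196 CPM in D15 EAM hearts, and Cd68, Lyz2 and Mrc1 had log2 fold changes of 3.59, 3.01 and 1.54 at D15. Of 7 dendritic cell genes 3 were induced on each of these days, with a sum of 33.9 to 40.9 CPM in control and 104 to 199 CPM in EAM hearts at D15, and Itgax, Flt3 and Zbtb46 had log2 fold changes of 6.23, 3.96 and -0.76. The part of these cells in the coreceptor levels was not tested.

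In the other marker lists, calls ran from 0 to 3 genes. Of 4 mast cell genes tested 0 were induced at D15 (Kit 0.52, Cma1 0.37 and Mcpt4 -0.69 on the log2 scale), with edgeR's quasi-likelihood test, and Mcpt4 was repressed at D21 (-1.78, where 1.16% of genes were). Of 4 platelet genes tested 2 were induced at D15 (Pf4 at 1.59 was called, and Ppbp at 1.85 and Gp1bb at 1.17 were not). Of 3 B cell genes 1 was induced at D15 (Cd79b at 1.68, and Cd79a at 1.29 was not), and the sum over the list was 12.02 CPM in D15 EAM replicate 2 and 2.03 to 3.70 CPM in the other 3. That heart, the lowest of its group for Cd8a, was also the lowest for the NK cell sum, at 15.98 CPM beside 35.8 to 37.1 CPM. At D21 the B cell sum was 8.92 CPM in EAM replicate 1 and 2.32 to 2.73 CPM in the other 3. Of 6 cardiomyocyte genes 3 were repressed at D15 and 0 at D21, from Tnnt2 at -0.82 and Ryr2 at -0.97 to Pln at -1.40, and their sum was 6220 to 16858 CPM in D15 EAM against 23128 to 27508 CPM in D15 control hearts.

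Tissues rich in T cell transcripts lie close to the heart (the thymus and lymph nodes), and their markers were read in every group. Rag2, which immature thymocytes need, had no read in any of the 24 libraries, and Arpp21, the 1 gene of that list with enough reads, was at -1.04 in the D15 comparison and not called (edgeR adjusted p = 0.0313). Of the 5 thymocyte genes, 2 had at most 3 reads over the group in D21 EAM hearts, beside 4 in D21 controls. At D15 these were 3 in EAM and 4 in control hearts. The summed level of the 5 was 0.386 to 1.04 CPM in D21 EAM and 0.865 to 1.83 CPM in D21 control hearts. At D15 it was 0.507 to 1.24 CPM in EAM and 0.677 to 1.18 CPM in control hearts. Glycam1, made by the high endothelial venules of lymph nodes, had no read in any group but D15 EAM. Cxcl13, which lymph node stroma and inflamed tissue both make, was induced at D15 (4.94 ± 0.40) and Fcer2a was not called (-1.25 ± 0.48). They were the only 2 of the 6 lymph node genes with enough reads for the D15 test, so the sums below may rest mainly on Cxcl13. The summed level of the 6 lymph node genes was 1.65 to 3.44 CPM in D15 control and 37.1 to 66.9 CPM in D15 EAM hearts. At D10 it was 1.79 to 3.20 CPM in control and 5.44 to 34.4 CPM in EAM hearts, which did not overlap. At D21 it was 2.07 to 3.79 CPM in control and 3.28 to 37.5 CPM in EAM hearts, where replicate 3 was the lowest, as for the members, and lay among the controls. The part of attached lymphoid tissue in the members' levels was not tested.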

How the data were processed

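Each of the 24 libraries was made from part of 1 heart. The authors aligned read pairs to GRCm38 with HISAT2 2.0.4, removed duplicates with Picard and deposited raw featureCounts counts of Ensembl genes. Library totals were 15814863 to 24980864 counts, and binomial intervals and the floor of 3 reads cover counting error only. For each day, genes that reached 10 reads in 4 or more of the 8 hearts were kept. They were tested on the counts with TMM and edgeR 4.0.16 in R 4.3.3. The quasi-likelihood test was used in its earlier form, that of the authors' release, but which edgeR test the authors used is not stated. Calls needed a Benjamini-Hochberg FDR under 0.01 over all genes tested and a 2-fold change. Effects on different days were compared in 1 fit of 24 hearts. Ratios of reads were tested by two-sided exact permutation tests with Benjamini-Hochberg adjustment over 18 tests and a threshold of 0.05. The smallest exact p of 4 against 4 hearts is 0.0286, so a few tests at that value cannot pass after the adjustment. Groups and replicate numbers came from the labels.

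The members and lists were chosen with earlier results of these data known. Named genes are the 10 members, Ptprc, the 2 largest and the 1 smallest D15 log2 fold changes of each other list, and the 3 most similar profiles of Cd3e, Cd4 and Cd8a with a mean of at least 1 CPM. Some genes that this rule names are not reported here. Of 123 listed genes 119 were found. What a replicate number stands for is not in the labels. The deviations of EAM and control hearts with the same number correlated over 0.1 in 4 of 4 pairs at D21 (0.107 to 0.316), in 2 of 4 at D10 and in 0 of 4 at D15, so that the numbers were treated as pairs at D21 on the basis of this correlation alone. Alternatives were DESeq2 1.42.0, limma-voom (limma 3.58.1), edgeR's likelihood ratio test, other scalings, filters and FDR limits, all control hearts, a replicate block, other added reads in the ratios, and leaving out each library. The newer form of the quasi-likelihood test was added after the data were seen. The test was checked on simulated counts of 14923 genes (D10), 15530 (D15) and 15157 (D21), with 200 genes of moderate or high level raised 4-fold. It called 200 of the 200 on each day, and 0, 0 and 1 of the other genes. Recovery was not tested at read counts as low as those of the members in control hearts. It was also not tested at the spread of the members between the D10 or D21 EAM hearts. Promoter sequences were found for 8 of the 10 members, and those of Cd4 and Cd8b1 were not analysed here.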

Additional observations from a re-analysis of the deposited data

Results flagged for a closer look

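In 6 of 60 sets of 4 hearts, the highest or lowest heart lay apart from the others by more than 0.829 of the range, where chance gives about 1 set in 20. Among these were Cd4 in D15 EAM replicate 3, at 11.99 CPM below the other 3 at 19.8 to 20.9 CPM, and Cd8a in D10 EAM replicate 1, at 1.24 CPM above the others at 0.390 to 0.453 CPM. In the D15 heart Cd8a was not low, at 3.33 CPM between the lowest at 2.21 and the highest at 5.06 CPM. The dendritic cell sum was lowest in that heart, at 104 CPM beside 155 to 199 CPM, and so was the B cell sum, at 2.03 CPM. The NK cell sum was not, at 35.8 CPM. The part of these cells in its Cd4 level was not tested. The other 4 were in control hearts, Cd3d at 0.615 CPM in D21 replicate 4, Cd3e at 0.865 CPM in D21 replicate 1, Cd247 at 2.32 CPM in D21 replicate 3 and Cd8b1 at 0.295 CPM in D15 replicate 2.

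The EAM effect differed between D10 and D15 for Cd4, by 3.31 on the log2 scale (edgeR adjusted p = 0.00321), and for Cd8a, by 3.004 (edgeR adjusted p = 0.00706), in the test of the difference itself. The Cd8a call was kept in 6 of 16 fits that left out 1 library (edgeR adjusted p up to 0.0304) and was lost with the replicate block (0.0141).

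Reads on the variable segments of the receptor chains, which entered no comparison, were above control hearts at D15 and D21 and overlapped with them at D10. These are raw reads, not scaled to library size. In CPM, all EAM hearts lay above all controls in 34.6% of the genes tested at D15 and 17.8% at D21. The 22 Trbv segments of the beta chain summed to between 119 and 152 reads in each D15 EAM heart, beside 6 to 8 in the controls of that day, and at D21 to 11 to 115 reads with EAM and 2 to 10 without. The 103 Trav segments of the alpha chain summed to 53 to 63 reads in each D15 EAM heart, beside 0 to 3 in the controls of that day, and at D21 to 8 to 49 with EAM and 0 to 1 without. At D10 the Trbv sums were 6 to 74 reads in EAM and 8 to 11 in control hearts, and the Trav sums 0 to 37 and 0 to 3.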

How the results depend on the processing

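At D15, 10 of 10 genes were called under every alternative (2579 to 3194 of all genes), and at D10 0 (0 to 48 of all genes), except that 7 were called against all 12 control hearts (632). At D21 limma-voom called 1, DESeq2 and edgeR's likelihood ratio test 8 each, and leaving out 1 library gave 0 to 9. For the rise from D10 to D15, DESeq2 called 5 (1316 of all genes), limma-voom 1 (826), an FDR under 0.05 8 (1599), the replicate block 5 (1288), and leaving out 1 library gave 1 to 9. At D21 the replicate block called 7, losing Cd8a, and from D10 to D15 it lost Cd8a and added Cd3e, Cd3g, Lat and Lck. It changed no other call of a member in the comparisons of EAM with control hearts. For the fall from D15 to D21 0 were called with DESeq2, limma-voom, other size factors, no low-count filter, an FDR under 0.05, the replicate block, the newer quasi-likelihood form and each D15 or D21 library left out, and the other alternatives were not run for the changes between days. The cause of these changes was not tested. Values that turned in sign were all of results that had not passed a test. For the D15 to D21 change they were, leaving out 1 library, Cd3d -0.65 to 0.32, Cd3e -0.58 to 0.30 and Lat -0.43 to 0.15, and for D10 Cd247 -0.10 to 0.57. The Cd4 ratio against Cd8b1 in place of Cd8a differed by -0.62 between EAM and control at D10 and by 0.98 at D21, and with 2 added reads the Cd4 to Cd8a difference at D21 was 0.64. Leaving out 1 library, the Cd4 to Cd8a difference ran from -0.39 to 0.42 at D10 and -0.34 to 0.73 at D21. The CD3 to Ptprc difference at D15 was -0.17 with Cd3e alone and ran from -0.0028 to 0.30 leaving out 1 library. The Cd8a to Cd8b1 differences ran from -0.032 to 0.67 (EAM against control, D15), -0.021 to 1.66 (D21), -0.19 to 0.078 (EAM D15 against D10), -0.027 to 0.24 (D21 against D15) and -0.096 to 0.22 (D21 against D10), and 2 added reads gave 0.080 for D15 against D10. Depth limits Cd8a, Cd8b1, Cd3d and Zap70 at D10, which had under 10 reads in most hearts, and with 3 against 4 hearts a ratio test cannot go below an exact p of 0.0571.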

Other observations

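Reads on the Trbv segments, summed over the 4 hearts of a group, were spread over many segments. In D15 EAM hearts 17 of 22 segments had a read, with 14 to 16 in a single heart. The leading one was Trbv13-2 with 84 of 550 reads, 15.3% (95% exact binomial interval 12.4% to 18.6%), followed by Trbv13-1 with 74 reads (13.5%) and Trbv5 with 62 (11.3%). In D21 EAM hearts Trbv13-2 had 39 of 273 reads, 14.3% (10.4% to 19.0%), and Trbv13-1 and Trbv19 had 30 each, 10.99% (7.54% to 15.3%), so the intervals overlap. Hearts differed in reads and in the leading segment: the Trbv13-2 share was 7.56% to 21.1% over the D15 EAM hearts, in which it led in 2 of 4. Over the D21 EAM hearts it was 11.4% to 45.5%, the highest resting on 5 of 11 reads in replicate 3, and it again led in 2 of 4. In D10 EAM hearts Trbv5 had 25 and Trbv13-2 had 22 of 116 reads, of which 74 were from replicate 1. Related segments are near-identical in part, so their separate counts are uncertain, and the intervals cover counting error only.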
